A study of Mus musculus with 12 samples.

Results

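The control newborn dLGN baseline is the expression profile of the dorsal lateral geniculate nucleus (dLGN), the visual nucleus of the thalamus, in newborn mice whose Sox2 and Nr2f1 genes were not deleted. Its members were chosen by column: the 3 control libraries of the table of the Sox2 line (CTRL_1, CTRL_2 and CTRL_3) and the 3 of the table of the Nr2f1 line (CTRL_B, CTRL_D and CTRL_E), joined by gene symbol, which makes 6 of the 12 libraries of the series and 24480 genes. The study dissected the dLGN of mouse pups on the day of birth, P0, and sequenced RNA from lines in which Sox2 or Nr2f1 was deleted in the thalamus by Ror-alphaCre, beside controls of each line. Each library was an independent pool of dLGNs from 3 animals, per the study's methods. The Sox2 controls were littermates labelled Sox2flox/flox or Sox2flox/+ that carried no Cre. The Nr2f1 controls carry a label that names both Nr2f1 flox/flox;Ror-alphaCre and the absence of Cre, and the study's methods describe them as littermates with flox/flox or flox/+ alleles of Nr2f1 and no Cre transgene. All 6 libraries therefore come from animals with a floxed allele of 1 of the 2 genes, so they are controls of their lines and not wild type animals. Neither the labels nor the sources used give the strain background, and line, table and any difference in handling between the lines cannot be told apart.

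The dLGN receives axons of retinal ganglion cells and relays visual signals to the primary visual cortex. Most of its cells are glutamatergic relay neurons that express Slc17a6, the vesicular glutamate transporter VGLUT2, and thalamic transcription factors such as Tcf7l2, and a smaller population of GABAergic interneurons migrates in from the midbrain and other sources. Around birth retinal axons are forming topographic maps there under the control of Eph receptors and ephrins, and relay neurons transiently take up serotonin.

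The 6 libraries held 40.3 to 50.1 M counts (M, mega): 45.2 M in CTRL_1, 43.1 M in CTRL_2 and 40.3 M in CTRL_3, and 42.1 M in CTRL_B, 50.1 M in CTRL_D and 46.8 M in CTRL_E. Values of single libraries are given in this order throughout. Levels compared between genes are in TPM, the counts divided by the longest annotated transcript of each gene and scaled to the same total in every library. Differences between the control groups rest on CPM, counts scaled for library size by the trimmed mean of M values and not divided by length.

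CTRL_3 stood apart from the other 5 libraries. Across 9905 genes with a mean of at least 10 CPM, 48 were over 1.5-fold higher in CTRL_3 than in each of the other libraries and 18 were that much lower, against 0 to 3 higher and 1 to 12 lower for the other libraries. Across the 15506 genes tested, Pearson's r of log levels was 0.988 to 0.993 in the 5 pairs with CTRL_3 and 0.993 to 0.996 in the other 10 pairs.  Genes of the sex chromosomes also varied among the pools, with Xist, the RNA of the inactive X chromosome, at 561, 0.185 and 541 CPM in the Sox2 controls and 483, 382 and 0.282 CPM in the Nr2f1 controls. CTRL_2 and CTRL_E thus held almost no Xist, while the Y-linked Ddx3y was at 7.52, 33.4 and 8.64 CPM in the Sox2 controls and 13.2, 21.6 and 31.3 CPM in the Nr2f1 controls. Both groups contain 1 library with almost no Xist and 2 with high Xist, so the 2 groups overlap for both genes.

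Of 24264 genes with a length, 13550 (55.8%) were above 1 TPM in all 6 libraries, 9414 above 10 TPM, 1875 above 100 TPM and 83 above 1000 TPM, each again in all 6. Without CTRL_3 the number above 1 TPM in every library was 13587. Counts were 0 in all 6 libraries for 5161 of the 24480 genes, and 3 counts, the floor for a count of 0 in a single library, correspond to between 0.0609 and 0.0730 CPM. The genes above 1 TPM in all 6 libraries had a median of 25.7 TPM. The profile was spread over many genes: the 15 highest genes held 8.07% of all TPM, the 100 highest 20.8% and the 1000 highest 53.6%.

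Among the 100 highest genes by mean TPM, 28 encode ribosomal proteins, 7 tubulins, 4 actins or thymosins, 3 stathmins, which bind tubulin, and 2 translation factors. Tuba1a, the main alpha-tubulin of growing neurons, was the highest gene at 15183, 14828 and 13092 TPM in the Sox2 controls and 17334, 17358 and 18687 TPM in the Nr2f1 controls. Its level was lowest in CTRL_3 and all 3 Nr2f1 controls lay above all 3 Sox2 controls, a difference that did not pass the test given below. How far reads of the similar genes Tuba1b and Tuba1c enter this level was not tested, and the sum of the 3 is given below. Tmsb10, which binds actin monomers, was at 9127, 9764 and 10470.4 TPM in the Sox2 controls and 9849.9, 9668 and 9226 TPM in the Nr2f1 controls, and the groups overlapped. Eef1a1, the translation elongation factor, was at 7891, 8261 and 8647 TPM in the Sox2 controls and 8196, 8655 and 8484 TPM in the Nr2f1 controls, again with overlap. The beta-tubulins Tubb2b, Tubb3, Tubb2a and Tubb5 had mean levels of 5885 TPM, 4105 TPM, 3934 TPM and 3593 TPM. Nnat, an imprinted gene of developing neurons, had a mean of 4952 TPM ± 236 (SD, n = 6). Actg1 and Actb, the cytoplasmic actins, had means of 4612 TPM and 3548 TPM, and Stmn1, a stathmin, had 4574 TPM. Other genes of the highest 15 were Ftl1, the ferritin light chain, with a mean of 3465 TPM, Nrep with 2682 TPM and Fabp7, a fatty acid binding protein of radial glia and astrocytes, with 2503 TPM. CTRL_3 was the highest library for Fabp7, at 3186 TPM against 2177 to 2478 TPM in the other 5 libraries. The plot of the highest genes shows each library. The Sox2 and the Nr2f1 controls, ranked alone, shared 13 of their 15 highest genes and 93 of their 100 highest.

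**Figure D1:**
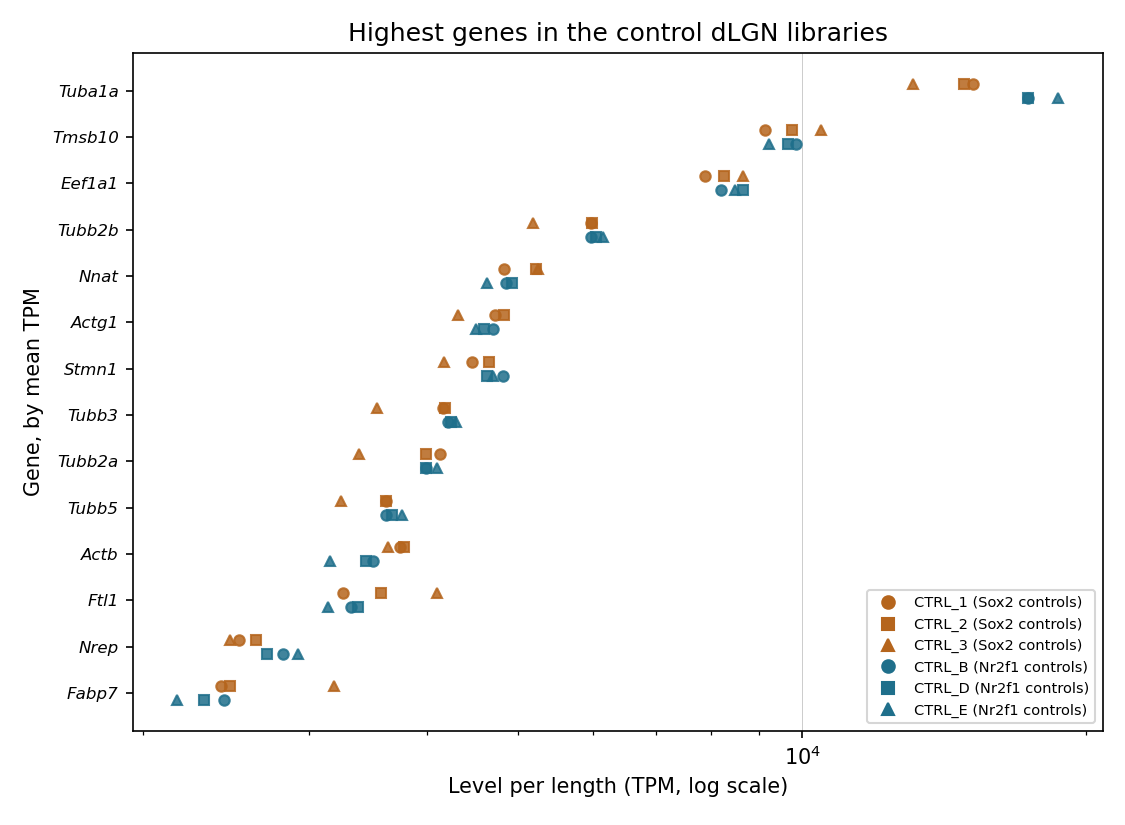
Level per length in TPM (log scale, horizontal axis) of genes among the 15 with the highest mean over the 6 control libraries (vertical axis); each point is 1 library, brown for Sox2 controls and blue for Nr2f1 controls. Tuba1a lies between 13092 and 18687 TPM, and Fabp7 between 2177 and 3186 TPM with CTRL_3 highest.

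The promoter of Tuba1a is shown because it belongs to the highest gene of the profile. The window is the 250 bases before the annotated start in RefSeq's GRCm38.p6 table, chr15:98953502-98953751 (minus strand). Capitals mark the motifs searched, which are the TATA box forms TATAAA and also TATATA, the CCAAT box, the GC box GGGCGG and the cAMP response element TGACGTCA. Each was searched on both strands, so that the CCAAT box also stands as ATTGG and the GC box as CCGCCC, and matches may overlap.
Tuba1a: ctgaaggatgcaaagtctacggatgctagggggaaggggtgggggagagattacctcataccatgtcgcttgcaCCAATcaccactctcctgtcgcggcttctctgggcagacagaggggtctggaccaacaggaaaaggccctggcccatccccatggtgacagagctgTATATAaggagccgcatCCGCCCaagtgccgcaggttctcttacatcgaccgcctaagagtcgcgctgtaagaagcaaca
The Tuba1a window held TATATA 80 bases, CCAAT 176 bases and CCGCCC 63 bases before the start. Windows were found for 18051 of the 24264 genes (74.4%), and over all of them TATATA was in 4.74%, TATAAA in 12.1%, CCAAT in 36.4%, GGGCGG in 42.9% and TGACGTCA in 2.07%. GGGCGG was in 63.0% of the 1702 windows of genes above 100 TPM and in 15.4% of the 6862 windows of genes at 1 TPM or below. TATAAA went the other way, with 6.82% above 100 TPM and 21.8% at or below 1 TPM, and CCAAT was in 35.1% and 36.4%. Median CpG counts per window were 18 above 100 TPM, 17 from 10 to 100 TPM, 12 from 1 to 10 TPM and 2 at or below 1 TPM. The 68 windows of the 100 highest genes had TATAAA in 11.8%, near its share over all windows. A match describes letters in a window and was not tested for function.

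Zic1, Thra, Tcf7l2 and Sox2 were the 4 highest transcription factors by mean TPM. Of 778 listed transcription factors with a level, 496 were above 1 TPM in the mean and 40 above 100 TPM, with a median of 4.20 TPM over the list beside 3.75 TPM over all 24264 genes. Zic1, a zinc finger factor of the dorsal neural tube and thalamus, was the highest at 999.7, 960.2 and 849 TPM in the Sox2 controls and 1132, 1213 and 1275 TPM in the Nr2f1 controls. Its groups did not overlap, and the Nr2f1 controls were higher. In 23.4% of all genes tested the groups did not overlap, in either direction. The Zic1 difference of 0.37 ± 0.08 on the log2 scale (SE, n = 3 per group, adjusted p = 0.0629) did not pass the threshold of 0.01, and it was 0.30 without CTRL_3 (adjusted p = 0.0418). Zic4, whose gene lies beside Zic1, had a mean of 309 TPM ± 45.3 (SD, n = 6) and Zic2 118 TPM. Thra, the thyroid hormone receptor alpha, was at 933, 940.5 and 893 TPM in the Sox2 controls and 921, 951 and 954 TPM in the Nr2f1 controls. Its range was narrow and the groups overlapped, and because Thra overlaps Nr1d1 on the opposite strand its reads may include some of that gene. Thrb, the other thyroid hormone receptor, had a mean of 0.942 TPM and was named after its value was seen.

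Tcf7l2, a mediator of Wnt signalling that marks thalamic neurons, was at 697, 650.1 and 515 TPM in the Sox2 controls and 697, 726 and 725 TPM in the Nr2f1 controls. CTRL_3 was the lowest library and the mean without it was 699 TPM. Lef1, the related factor, had a mean of 210.4 TPM ± 25.9 (SD, n = 6). Sox2 had 526 TPM ± 19.8 (SD, n = 6), and the other abundant Sox genes were Sox4 with 326 TPM, Sox12 with 195 TPM and Sox11 with 160.2 TPM. Sox2 lies inside the noncoding gene Sox2ot, so reads of the 2 genes may be mixed. Nr2f1 had 319 TPM ± 27.8 (SD, n = 6), and Nr2f2, its paralog, 37.5 TPM. Sox2 and Nr2f1 are the genes deleted in the mutants of the 2 lines, and in the controls neither differed by the test, with -0.02 ± 0.07 on the log2 scale (SE, n = 3 per group, adjusted p = 0.904) for Sox2 and 0.12 ± 0.09 on the log2 scale (SE, n = 3 per group, adjusted p = 0.518) for Nr2f1.

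The windows before the starts of Zic1, Tcf7l2 and Sox2 are shown as those of the highest transcription factors found in the promoter table, where Thra has no entry. They lie at chr9:91365769-91366018 (minus strand), chr19:55741560-55741809 (plus strand) and chr3:34649745-34649994 (plus strand) of GRCm38.p6 (RefSeq), with the same motifs in capitals.
Zic1: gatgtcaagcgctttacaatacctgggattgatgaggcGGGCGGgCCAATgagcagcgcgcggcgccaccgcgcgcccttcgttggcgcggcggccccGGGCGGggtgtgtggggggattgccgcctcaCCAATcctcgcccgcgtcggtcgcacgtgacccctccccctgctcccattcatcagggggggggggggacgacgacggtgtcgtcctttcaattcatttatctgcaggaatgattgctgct
Tcf7l2: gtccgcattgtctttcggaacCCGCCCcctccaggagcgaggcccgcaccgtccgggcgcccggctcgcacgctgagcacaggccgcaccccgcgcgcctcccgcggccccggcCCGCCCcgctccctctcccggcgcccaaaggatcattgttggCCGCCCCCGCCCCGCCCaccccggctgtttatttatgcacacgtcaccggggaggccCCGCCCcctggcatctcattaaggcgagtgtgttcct
Sox2: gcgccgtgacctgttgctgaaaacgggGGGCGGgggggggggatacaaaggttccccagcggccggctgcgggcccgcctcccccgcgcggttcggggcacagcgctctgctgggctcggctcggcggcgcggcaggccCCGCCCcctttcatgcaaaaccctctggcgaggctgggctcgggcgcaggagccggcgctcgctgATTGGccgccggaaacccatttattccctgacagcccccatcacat
All 3 windows held GGGCGG on either strand, and they had 27, 30 and 27 CpG, beside a median of 10 over all windows. Zic1 held CCAAT 205 and 121 bases before the start and Sox2 held ATTGG 46 bases before it. Among the 379 windows of transcription factors above 1 TPM, 65.4% held GGGCGG and 7.39% TATAAA, with a median of 18 CpG.

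Other abundant factors were Olig1, of the oligodendrocyte lineage, at a mean of 315 TPM, Hmga1, a chromatin protein, at 266 TPM, the forkhead factor Foxp4 at 259 TPM, the zinc finger factor Sp9 at 252 TPM, and Atf4 and Jund, of the bZIP family, at 243 TPM and 230.3 TPM. Scrt1, Arnt2, Id3 and Meis3 had means of 210.2 TPM, 203 TPM, 196 TPM and 183 TPM. Olig1 was highest in CTRL_3, at 410.0 TPM against 274 to 319 TPM in the other libraries. By family, 17 of 19 Sox genes, all 4 TCF/LEF genes, all 4 NFI genes, 33 of 47 nuclear receptors and 67 of 102 bHLH genes were above 1 TPM, against 5 of 12 LIM homeodomain genes. Lhx9 led the LIM group with a mean of 144 TPM, Pou2f2 the Pou group with 115 TPM, Zeb1 the other homeodomain genes with 103 TPM, Mef2c the MEF2 group with 95.9 TPM and Shox2 the paired group with 29.4 TPM. The 39 Hox genes, which pattern hindbrain and spinal cord, were all below 1 TPM in the mean, the highest at 0.0435 TPM.

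**Figure D2:**
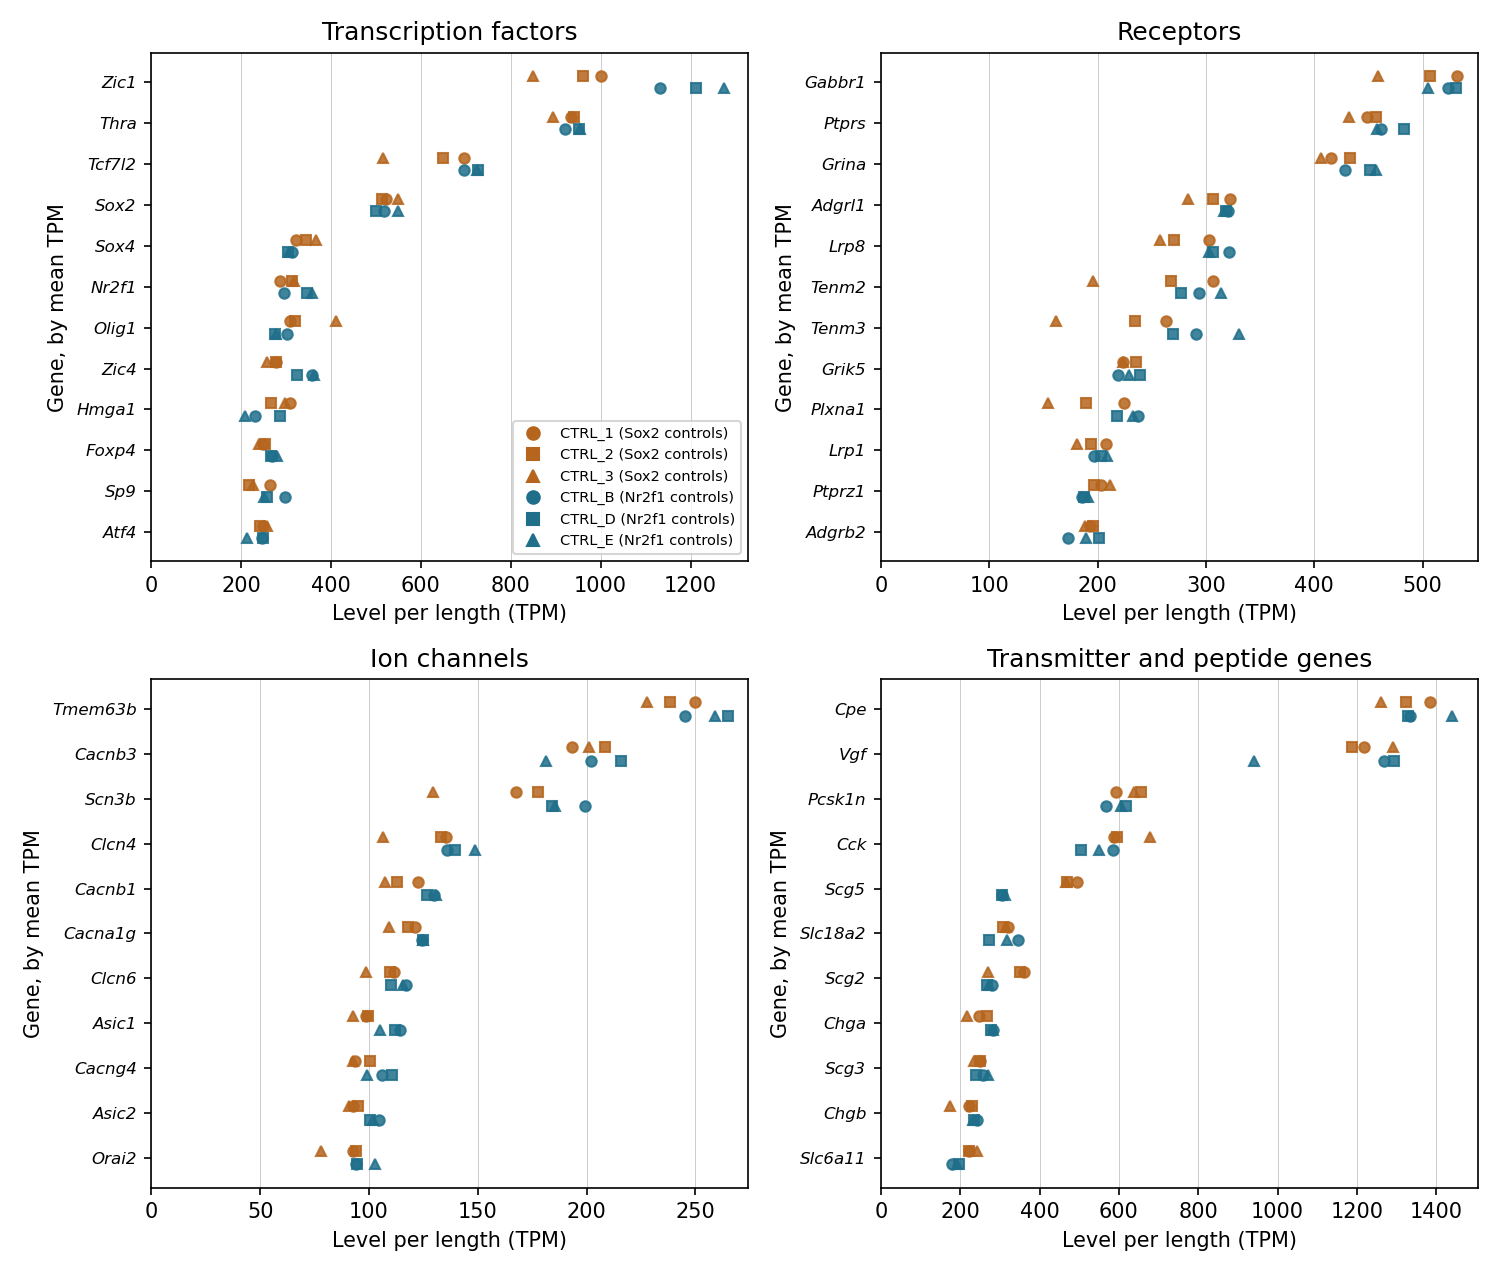
Level per length in TPM (horizontal axes, starting at 0) of genes among the 12 highest of each of 4 lists (vertical axes); each point is 1 library, brown for Sox2 controls and blue for Nr2f1 controls, with symbols as in the legend. Scg5 separates the groups most plainly, at 467 to 494 TPM in the Sox2 controls and 305 to 312 TPM in the Nr2f1 controls.

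Of 349 listed receptors with a level, 256 were above 1 TPM in the mean and 33 above 100 TPM, with a median of 7.69 TPM. Gabbr1, a subunit of the metabotropic GABA-B receptor, was the highest at 532, 507 and 459 TPM in the Sox2 controls and 523, 530.4 and 505 TPM in the Nr2f1 controls. CTRL_3 was lowest, the groups overlapped, and the partner subunit Gabbr2 had a mean of 114 TPM. Among ionotropic GABA-A subunits, 12 of 19 were above 1 TPM, among them Gabra3 with 59.6 TPM. Named after their values were seen, the alpha subunit genes Gabra2 and Gabra5 had 30.5 TPM and 36.9 TPM. The highest glycine receptor subunit was Glra2, a fetal form, with 105, 110.2 and 77.4 TPM in the Sox2 controls and 145, 126 and 142 TPM in the Nr2f1 controls. All 3 Nr2f1 controls lay above all 3 Sox2 controls for Glra2, and the difference of 0.49 ± 0.12 on the log2 scale (SE, n = 3 per group, adjusted p = 0.0785) did not pass the test. It was 0.35 without CTRL_3 (adjusted p = 0.0502).

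The highest ionotropic glutamate receptor subunits per length were 2 kainate receptor subunits. Grik5 had a mean of 228 TPM ± 7.70 (SD, n = 6) and Grik3 178 TPM ± 26.6 (SD, n = 6). Grin1, the obligatory NMDA receptor subunit, had 147 TPM, and, named after their values were seen, Grin2d had 81.6 TPM, Grin2b 6.67 TPM and Grin2a 0.699 TPM. The AMPA receptor subunits Gria2, Gria1, Gria4 and Gria3, named in the same way, had means of 73.5 TPM, 69.1 TPM, 54.0 TPM and 10.4 TPM. Grina, with 432 TPM, entered the list by its symbol and is not a subunit of these receptors. Grm3 and Grm5 led the 7 of 8 metabotropic glutamate receptors above 1 TPM, with 92.5 TPM and 79.2 TPM.

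All 14 Eph receptors were above 1 TPM, with a median of 29.3 TPM. Epha4 had a mean of 109.6 TPM and Epha8 104 TPM. Of the 4 teneurins, which pair cells of visual circuits, Tenm2 was the highest, at 307, 268 and 196 TPM in the Sox2 controls and 294, 277 and 314 TPM in the Nr2f1 controls. Tenm3 was at 263, 234 and 162 TPM in the Sox2 controls and 291, 269.6 and 330.1 TPM in the Nr2f1 controls. CTRL_3 was the lowest library for both, the groups overlapped for Tenm2 but not for Tenm3, and the Tenm3 difference of 0.43 ± 0.15 on the log2 scale (SE, n = 3 per group, adjusted p = 0.191) did not pass the test. It was 0.26 without CTRL_3 (adjusted p = 0.191). The receptor phosphatases Ptprs, Ptprz1, Ptprd and Ptprn2 had means of 457 TPM, 196 TPM, 165 TPM and 142 TPM. Among guidance and adhesion receptors, Adgrl1 had 311 TPM, Adgrb2 189.8 TPM, Adgrl2 142 TPM, Adgrg1 141 TPM, Plxna1 209 TPM, Neo1 95.3 TPM and Robo2 81.9 TPM. Lrp8, a reelin receptor, had 294 TPM, Lrp1 198 TPM and Ntrk2, the receptor of BDNF, 157 TPM.

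Receptors for modulatory transmitters were led by Adora1, the adenosine A1 receptor, with a mean of 136 TPM, and by the nicotinic subunits Chrna4 with 118 TPM and Chrnb2 with 77.8 TPM. Only 5 of 16 nicotinic subunit genes were above 1 TPM in the mean. The serotonin receptor Htr1b, found on axons of developing thalamic neurons, had 72.6 TPM and Htr7 33.7 TPM, and the nociceptin receptor Oprl1 and the PACAP receptor Adcyap1r1 had 101 TPM and 101 TPM. The highest muscarinic, dopamine, adrenergic and histamine receptor genes were Chrm3 with 20.3 TPM, Drd5 with 14.3 TPM, Adra1b with 4.99 TPM and Hrh3 with 2.83 TPM.

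Of 235 listed channel genes with a level, 164 were above 1 TPM in the mean and 9 above 100 TPM, with a median of 4.62 TPM. All 3 T-type calcium channel genes, which support burst firing of thalamic neurons, were above 1 TPM, and Cacna1g, the main one of relay neurons, was at 121, 118 and 109 TPM in the Sox2 controls and 124, 125 and 125 TPM in the Nr2f1 controls. The 6 libraries of Cacna1g lay close together, with CTRL_3 lowest and all 3 Nr2f1 controls above all 3 Sox2 controls. The groups did not overlap in 23.4% of all genes tested, and the Cacna1g difference did not pass the test. Cacna1h had a mean of 92.3 TPM ± 3.61 (SD, n = 6). The auxiliary calcium channel subunits Cacnb3, Cacnb1 and Cacng4 had 200.3 TPM, 122 TPM and 100.4 TPM, and Cacna1b, an N-type channel gene, had 77.4 TPM. The highest channel gene was Tmem63b, a mechanosensitive channel, with 247 TPM ± 13.6 (SD, n = 6).

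Scn3a, the sodium channel alpha subunit typical of immature neurons, had 57.1 TPM, and the beta subunit Scn3b was at 168, 178 and 129 TPM in the Sox2 controls and 199, 184 and 186 TPM in the Nr2f1 controls. CTRL_3 was the lowest library for Scn3b and the 2 groups did not overlap, but the difference of 0.26 ± 0.11 on the log2 scale (SE, n = 3 per group, adjusted p = 0.250) did not pass the test and was 0.14 without CTRL_3 (adjusted p = 0.398). Among potassium channels, 30 of 40 voltage-gated genes were above 1 TPM, among them Kcnh2 with 89.8 TPM. Of the HCN genes, which carry the pacemaker current of thalamic neurons, Hcn3 and Hcn2 had means of 77.6 TPM and 61.2 TPM, and Hcn4, named after its value was seen, had 28.1 TPM. Chloride channel and transporter genes were led by Clcn4 with 133 TPM and Clcn6 with 110.4 TPM, and acid-sensing channels by Asic1 with 104 TPM and Asic2 with 97.6 TPM. The sodium leak channel Nalcn had 42.2 TPM, falling to 29.8 TPM in CTRL_3.

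Genes of neuropeptides, granins and transmitter transport formed the list with the highest share above 100 TPM, 16 of 65, with 48 above 1 TPM in the mean and a median of 6.97 TPM. Cpe, which trims peptide precursors, was at 1384, 1324 and 1259.6 TPM in the Sox2 controls and 1334, 1328 and 1441 TPM in the Nr2f1 controls, and the groups overlapped. Vgf, a granin-like peptide precursor, had a mean of 1200.1 TPM, and CTRL_E was the lowest library at 941 TPM. Pcsk1n, an inhibitor of peptide processing, had 613 TPM, and Cck, the cholecystokinin precursor, 584 TPM. Scg5, which assists the convertase PC2, was at 494, 469 and 467 TPM in the Sox2 controls and 306, 305 and 312 TPM in the Nr2f1 controls, and this was the 1 gene of the list called between the control groups. Scg2, Chga, Scg3 and Chgb, granin genes of secretory vesicles, had means of 301 TPM, 262 TPM, 250.2 TPM and 222 TPM.

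The vesicular monoamine transporter Slc18a2 was the highest vesicular transporter, at 319, 309 and 315 TPM in the Sox2 controls and 347, 273 and 317 TPM in the Nr2f1 controls. The groups overlapped. Slc17a6 (VGLUT2) was at 195, 157 and 143 TPM in the Sox2 controls and 195, 154 and 190.1 TPM in the Nr2f1 controls, with CTRL_3 lowest and overlap between the groups. Slc6a4, the serotonin transporter, was at 87.2, 74.7 and 87.0 TPM in the Sox2 controls and 72.5, 65.1 and 36.0 TPM in the Nr2f1 controls. CTRL_E was the low library for Slc6a4, below all 5 others. Tph1 and Tph2, which make serotonin, and Th, Dbh and Chat, of other transmitters, were each under 1 TPM in every library, while Gad1, which makes GABA, had a mean of 35.0 TPM. The GABA transporter Slc6a11 had a mean of 209 TPM, and Ache, which breaks down acetylcholine, 192 TPM. The glutamate transporter Slc1a3 had 174 TPM.

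Markers of thalamic neurons were present in all 6 libraries. All 14 markers of thalamic glutamatergic neurons were above 1 TPM, and their sum was 1595 TPM in CTRL_3 and between 1823 and 2039 TPM in the other 5 libraries. Its highest genes were Tcf7l2, Lef1, Ntng1 with a mean of 194 TPM and Slc17a6, while Rorb, at 6.44 TPM, was its lowest. CTRL_3 had the lowest sum, and the sums of the other libraries overlapped between the groups. The 12 markers of neurons of any kind summed to 11088, 11134 and 9652 TPM in the Sox2 controls and 11622, 11189.6 and 11480.5 TPM in the Nr2f1 controls, led by Tubb3, and all were above 1 TPM. The 10 GABAergic markers, all above 1 TPM in the mean, summed to 191, 201 and 129 TPM in the Sox2 controls and 196, 194 and 193 TPM in the Nr2f1 controls. CTRL_3 was far below the other 5 libraries in that sum, whose highest gene was Npy with 56.5 TPM. Of 7 markers of interneurons derived from the midbrain, Tal2 was under 1 TPM and Otx2 led with 25.1 TPM, in a sum of 79.0, 86.3 and 79.2 TPM in the Sox2 controls and 80.4, 89.3 and 77.7 TPM in the Nr2f1 controls.

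Glial and vascular markers were present, and their sums were highest in CTRL_3. Single markers did not all follow the sums. Slc1a2, at 40.6 TPM, and Mbp, at 9.17 TPM, were lowest in CTRL_3, and Gfap, Aldoc, Gpr17 and Mag were not highest there. The 11 markers of astrocytes and radial glia, led by Fabp7, summed to 3858, 3957 and 4868 TPM in the Sox2 controls and 3649.7, 3515 and 3438 TPM in the Nr2f1 controls. Endothelial markers, led by Cldn5 with a mean of 192 TPM, summed to 355, 366 and 549 TPM in the Sox2 controls and 338, 412 and 364 TPM in the Nr2f1 controls. The 9 markers of meningeal and perivascular fibroblasts, led by Igf2 with 241 TPM, summed to 829, 757 and 1530.0 TPM in the Sox2 controls and 574, 840.2 and 878 TPM in the Nr2f1 controls. Pericyte markers, led by Vtn, summed to 266, 288 and 450.1 TPM in the Sox2 controls and 258, 281 and 321 TPM in the Nr2f1 controls, and markers of the oligodendrocyte lineage, led by Olig1, to 602, 583 and 734 TPM in the Sox2 controls and 551, 509 and 531 TPM in the Nr2f1 controls. CTRL_3 was above the 5 other libraries in each of these 5 sums and was below them in the neuronal, thalamic and GABAergic sums. In such bulk tissue, fewer cells of a type and less RNA per cell cannot be told apart. Microglia markers ranged from 193 to 253 TPM, and markers of border macrophages, led by F13a1, from 34.8 to 44.3 TPM in 5 libraries, with CTRL_3 above them. Of the 7 red blood cell markers, led by Hba-a1, Slc4a1 was under 1 TPM, and the sums ranged from 1005 TPM in CTRL_B to 2052 TPM in CTRL_3.

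Of 7 habenula markers, Pou4f1, Pou4f2, Tac2 and Chrnb4 were under 1 TPM in every library, and the highest, Nhlh2, had a mean of 37.8 TPM. Of 11 markers of pallial and hippocampal neurons, Zbtb20 was under 1 TPM and the sum ranged from 41.4 TPM in CTRL_3 to 76.1 TPM in CTRL_1, led by Prox1. Markers of zona incerta, reticular and ventral geniculate nuclei summed to between 73.3 and 95.2 TPM, led by Nkx2-2 with 54.0 TPM, and Sp8 was under 1 TPM. Choroid plexus and ependyma markers varied widely, with sums of 295, 102 and 18.7 TPM in the Sox2 controls and 83.0, 64.9 and 153 TPM in the Nr2f1 controls. Ttr, which is abundant in choroid plexus, was the highest gene, and Kl and Ccdc153 were under 1 TPM. Dividing cells were represented by 6 measured markers, led by Top2a with 28.7 TPM, and summed to between 74.0 and 113 TPM. Immediate early genes, led by Egr1, ranged from 94.1 TPM in CTRL_E to 190.2 TPM in CTRL_3, with Fosb under 1 TPM, and heat shock and stress genes, led by Ddit4, from 273 to 314 TPM.

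**Figure D3:**
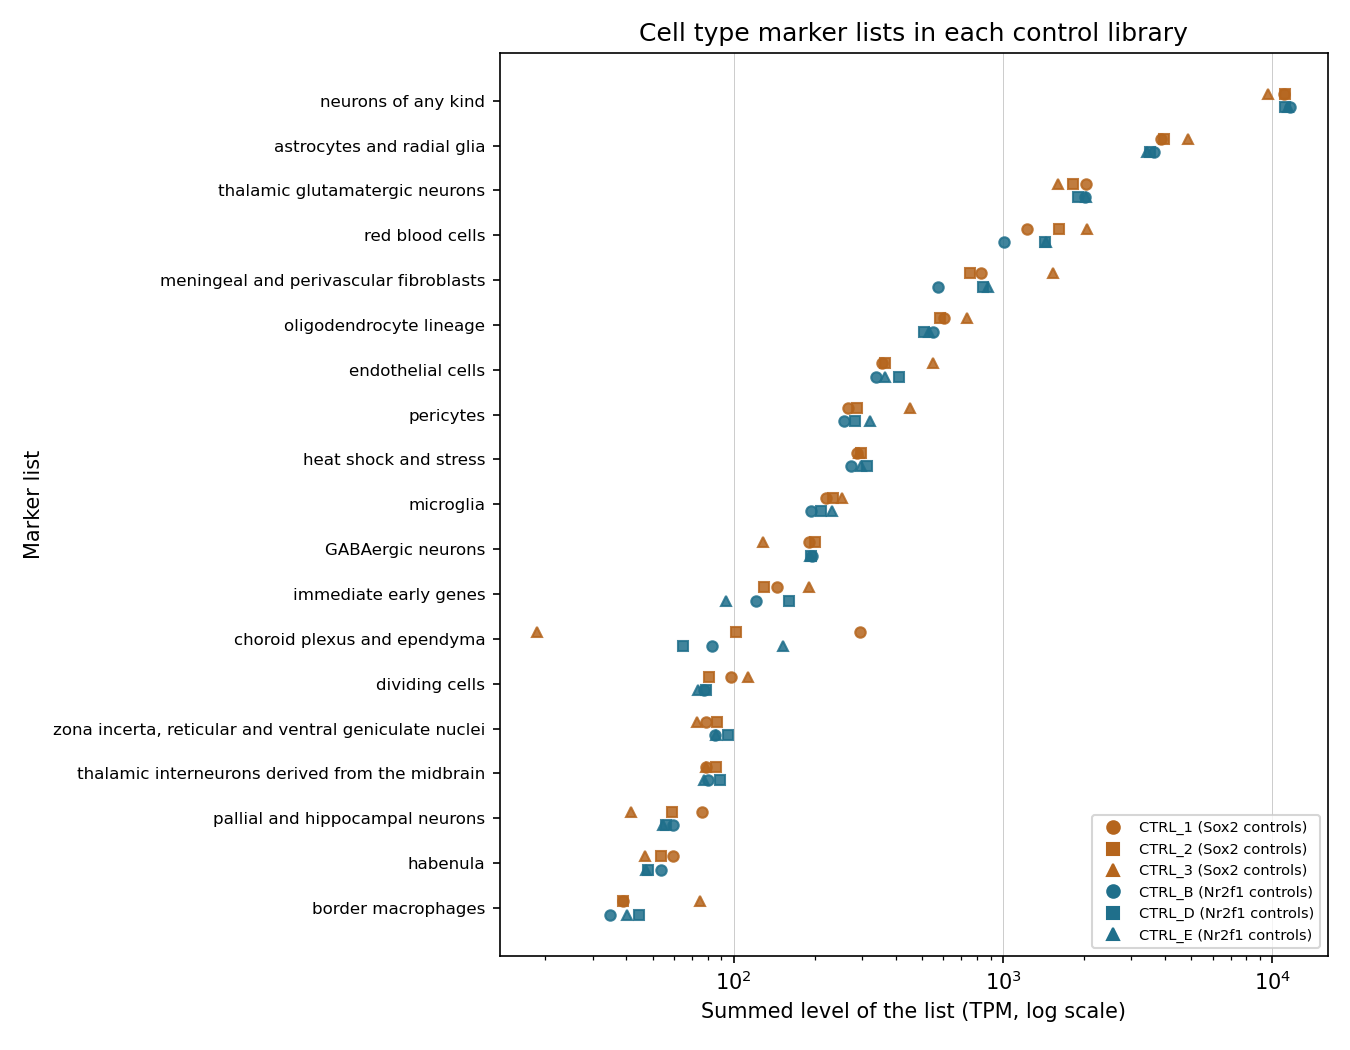
Summed level in TPM (log scale, horizontal axis) of each cell type marker list (vertical axis), with 1 point per library, brown for Sox2 controls and blue for Nr2f1 controls. CTRL_3 (brown triangle) has the highest sum of meningeal and perivascular fibroblast markers, 1530.0 TPM, and the lowest of GABAergic markers, 129 TPM.

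The comparison of the 2 control groups asks which genes vary between the baselines of the 2 lines. By edgeR, of 15506 genes tested, 53 (0.342%) were called at an adjusted p below 0.01, 37 (0.239%) higher in the Nr2f1 controls and 16 (0.103%) higher in the Sox2 controls. The control groups did not overlap for 3626 genes (23.4%), which include all 53 called genes. At an adjusted p below 0.05 there were 209 genes (1.35%). The test could resolve modest differences, with a median SE of 0.10 on the log2 scale, and for 10053 genes (64.8%) the 95% interval of the difference lay within 0.5 of 0. Of the 53 genes, 33 differed over 2-fold, 20 over 4-fold and 19 had a mean below 5 CPM. Without CTRL_3 the test also called 53 genes, of which 44 were among those called with it, but without CTRL_1 or without CTRL_2 it called 20, and without CTRL_B, CTRL_D or CTRL_E it called 23, 33 and 32. With the level of male-specific genes as a covariate it called 20 genes, and DESeq2 in place of edgeR called 344. Of the 53 genes, 8 were called in all 16 alternative fits, among them Scg5, Mamdc2, Gstm6, Hba-a2 and Ooep. A further 5, Dppa5a, Gm14305, Gm3317, 2210418O10Rik and Rec8, were called in the 15 fits that tested them and were removed by the filter of at least 10 counts in each library. These 5 had reached the count asked of tested genes in the Nr2f1 controls only, so the 15 fits say little of their stability. In all, 7 called genes among 25 tested had reached it in that group only, 1 among 16 in the Sox2 controls only and 44 among 14745 in all 6 libraries. Of the 53, 0 changed direction in a fit that tested them.

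Several called genes had at most 2 counts over the 3 Sox2 controls and low levels in the Nr2f1 controls. Gm14305, a zinc finger gene of chromosome 2, was at 0, 0 and 0 CPM in the Sox2 controls and 4.70, 6.44 and 4.62 CPM in the Nr2f1 controls. This makes it at least 229-fold higher in the Nr2f1 controls against a floor of 3 counts over the 3 Sox2 controls together. Its neighbour 2210418O10Rik had 2 counts over the Sox2 controls and 1405 over the Nr2f1 controls, a ratio of 664 with a 95% counting interval of 184 to 5491. Zfp973, which lies between these 2 genes, was at 0, 0 and 0 CPM in the Sox2 controls and 1.21, 1.06 and 1.32 CPM in the Nr2f1 controls. It was at least 51.7-fold higher against the same floor over the group. Leaving out CTRL_B ended the call of Zfp973, with adjusted p from 0.00213 to 0.0113 over the 6 omissions. All 3 genes lie on chromosome 2 between bases 176226565 and 176721813, and none had more than 1 count in any Sox2 control. The Sox2 mutants held 24 counts of 2210418O10Rik and 21 of Gm14305 over 3 libraries, against 661 and 527 in the Nr2f1 mutants. Gm3317, on chromosome 14, was at 0, 0 and 0 CPM in the Sox2 controls and 4.58, 2.74 and 2.60 CPM in the Nr2f1 controls. It was at least 141-fold higher against a floor of 3 counts over the group. The bounds of Gm14305, Zfp973 and Gm3317 would be lower with a floor of 3 counts in each library. These intervals and floors cover counting error only, and all 4 genes belong to families of similar genes, whose sharing of reads was not tested.

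Among genes with clear levels in both groups, Rgs8, a regulator of G protein signalling, was at 236, 235 and 210.4 CPM in the Sox2 controls and 311, 330.2 and 324 CPM in the Nr2f1 controls, a difference of 0.50 ± 0.07 on the log2 scale (SE, n = 3 per group, adjusted p = 0.00807); its call was lost without any 1 library other than CTRL_3, with adjusted p from 0.00565 to 0.0462 over the 6 omissions. Adcy2, an adenylyl cyclase, was at 47.1, 45.4 and 36.0 CPM in the Sox2 controls and 72.7, 74.8 and 90.1 CPM in the Nr2f1 controls, with no overlap and a difference of 0.89 ± 0.11 on the log2 scale (SE, n = 3 per group, adjusted p = 0.00553). Adcy2 differed by 0.77 without CTRL_3, and its call was lost without any 1 library other than CTRL_3, with adjusted p from 0.00475 to 0.0231 over the 6 omissions. Ryr1, a calcium release channel, was at 18.4, 17.0 and 22.9 CPM in the Sox2 controls and 42.4, 44.9 and 36.6 CPM in the Nr2f1 controls, with a difference of 1.09 ± 0.12 on the log2 scale (SE, n = 3 per group, adjusted p = 0.00262), and its call was lost without CTRL_1, CTRL_2, CTRL_B or CTRL_D, with adjusted p from 0.000561 to 0.0169 over the 6 omissions. The groups were apart for these genes, the smallest gap relative to their levels being that of Rgs8. Sorl1, a sorting receptor, was at 23.3, 23.1 and 18.0 CPM in the Sox2 controls and 38.8, 34.1 and 40.6 CPM in the Nr2f1 controls, with a difference of 0.82 ± 0.11 on the log2 scale (SE, n = 3 per group, adjusted p = 0.00870), and its call was lost without any 1 library other than CTRL_3, with adjusted p from 0.00780 to 0.0442 over the 6 omissions. Ide, the insulin-degrading enzyme, was at 61.7, 56.1 and 60.2 CPM in the Sox2 controls and 94.8, 88.2 and 107 CPM in the Nr2f1 controls, higher in the Nr2f1 controls by 0.71 ± 0.08 on the log2 scale (SE, n = 3 per group, adjusted p = 0.00288), and its call was lost without CTRL_1, CTRL_2 or CTRL_B, with adjusted p from 0.00466 to 0.0201 over the 6 omissions. Gstm6, a glutathione transferase, was at 1.75, 1.92 and 2.09 CPM in the Sox2 controls and 6.86, 8.97 and 7.81 CPM in the Nr2f1 controls, a difference of 2.04 ± 0.16 on the log2 scale (SE, n = 3 per group, adjusted p = 2.43e-04). Gstm6 has close paralogs, and sharing of reads with them was not tested.

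Higher in the Sox2 controls was Scg5, at 194, 189.6 and 188 CPM in the Sox2 controls and 121, 123 and 125 CPM in the Nr2f1 controls. The libraries of each group lay close together, and the difference was -0.63 ± 0.06 on the log2 scale (SE, n = 3 per group, adjusted p = 5.83e-04). Sparcl1, a matricellular protein of astrocytes and vessels, was at 841, 887 and 1022 CPM in the Sox2 controls and 498, 553 and 586 CPM in the Nr2f1 controls. All 3 Sox2 controls were higher, CTRL_3 the highest, and the difference of -0.75 ± 0.09 on the log2 scale (SE, n = 3 per group, adjusted p = 0.00479) was -0.66 without CTRL_3, and its call was lost without CTRL_2, CTRL_B, CTRL_D or CTRL_E, with adjusted p from 0.00176 to 0.0275 over the 6 omissions. Mamdc2 was at 15.7, 16.2 and 18.1 CPM in the Sox2 controls and 6.71, 6.68 and 5.97 CPM in the Nr2f1 controls, a difference of -1.37 ± 0.10 on the log2 scale (SE, n = 3 per group, adjusted p = 2.39e-04). Angptl4, a secreted inhibitor of lipoprotein lipase, was at 22.2, 24.0 and 31.8 CPM in the Sox2 controls and 14.1, 10.9 and 11.0 CPM in the Nr2f1 controls, with CTRL_3 highest and a difference of -1.12 ± 0.15 on the log2 scale (SE, n = 3 per group, adjusted p = 0.00725), and its call was lost without any 1 library other than CTRL_3, with adjusted p from 0.00692 to 0.0402 over the 6 omissions. These genes separate the groups in all 6 libraries. S1pr5, a receptor for sphingosine-1-phosphate, was at 6.79, 5.89 and 4.74 CPM in the Sox2 controls and 2.13, 2.48 and 2.24 CPM in the Nr2f1 controls, with a difference of -1.35 ± 0.17 on the log2 scale (SE, n = 3 per group, adjusted p = 0.00561), and its call was lost without any 1 library other than CTRL_3, with adjusted p from 0.00246 to 0.0314 over the 6 omissions. The protocadherin gene Pcdhgb8 was at 22.6, 22.1 and 25.9 CPM in the Sox2 controls and 8.11, 10.4 and 6.71 CPM in the Nr2f1 controls, a difference of -1.48 ± 0.15 on the log2 scale (SE, n = 3 per group, adjusted p = 0.00162), and its call was lost without CTRL_B, with adjusted p from 0.00102 to 0.0132 over the 6 omissions. Pcdhb9 of the same cluster went the other way, by 1.27 ± 0.15 on the log2 scale (SE, n = 3 per group, adjusted p = 0.00322), and its call was lost without CTRL_1, CTRL_2, CTRL_D or CTRL_E, with adjusted p from 0.00483 to 0.0188 over the 6 omissions. Just outside the threshold lay Gfap, the intermediate filament of astrocytes, at 70.9, 75.2 and 66.2 CPM in the Sox2 controls and 35.9, 35.9 and 49.1 CPM in the Nr2f1 controls. It was higher in all 3 Sox2 controls, with a difference of -0.81 ± 0.12 on the log2 scale (SE, n = 3 per group, adjusted p = 0.0110), which was -0.86 without CTRL_3 (adjusted p = 0.0108), and the sums of the whole astrocyte and radial glia list given above were likewise higher in the Sox2 controls. Their part in the result was not tested.

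Some called genes are 1 of several near-identical copies, and summing the copies, chosen after seeing the data, ended the call for Hba-a2 and Eif3j1. Hba-a2, an alpha-globin gene, was at 2.43, 3.81 and 4.94 CPM in the Sox2 controls and 38.1, 46.4 and 61.7 CPM in the Nr2f1 controls. Its copy Hba-a1 was at 160.5, 210.2 and 267 CPM in the Sox2 controls and 87.5, 137 and 115 CPM in the Nr2f1 controls. The groups were apart in opposite directions, and the sum of both copies differed by -0.42 ± 0.18 on the log2 scale (SE, n = 3 per group, adjusted p = 0.272), which did not pass the test, so that total alpha-globin RNA was not called. Eif3j1, a translation initiation factor gene, was at 6.16, 4.16 and 3.97 CPM in the Sox2 controls and 28.1, 32.5 and 15.7 CPM in the Nr2f1 controls, and its call was lost without CTRL_2 or CTRL_B, with adjusted p from 0.000237 to 0.0169 over the 6 omissions. Its copy Eif3j2 was at 40.7, 41.3 and 41.2 CPM in the Sox2 controls and 16.7, 11.4 and 26.6 CPM in the Nr2f1 controls, low where Eif3j1 was high. Their sum was 46.9, 45.5 and 45.1 CPM in the Sox2 controls and 44.8, 43.9 and 42.3 CPM in the Nr2f1 controls, a difference of -0.07 ± 0.06 on the log2 scale (SE, n = 3 per group, adjusted p = 0.606). Tuba1c, not called, was at 1178, 1147 and 984 CPM in the Sox2 controls and 372, 516 and 39.6 CPM in the Nr2f1 controls, while the sum of Tuba1a, Tuba1b and Tuba1c was 10794, 10829 and 9526 CPM in the Sox2 controls and 11315, 11589.9 and 11950.5 CPM in the Nr2f1 controls. The low Tuba1c values of the Nr2f1 controls thus stood beside high Tuba1a values. The groups did not overlap in the sum either, with a difference of 0.16 ± 0.07 on the log2 scale (SE, n = 3 per group, adjusted p = 0.280). For Tmem254a, Tmem254b and Tmem254c the sum remained called, with 1.38 ± 0.11 on the log2 scale (SE, n = 3 per group, adjusted p = 3.34e-04), as did that of Plac9a and Plac9b, with 2.20 ± 0.27 on the log2 scale (SE, n = 3 per group, adjusted p = 0.00506). The Tmem254 sum was called with each library left out in turn, while that of Plac9a and Plac9b was not called without CTRL_1, CTRL_2, CTRL_B or CTRL_E, with adjusted p from 0.00123 to 0.0289 over the 6 omissions. Rpl29 (difference 0.82) is a ribosomal protein gene, and its call was lost without CTRL_1, CTRL_2 or CTRL_B, with adjusted p from 0.00150 to 0.0151 over the 6 omissions.

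**Figure D4:**
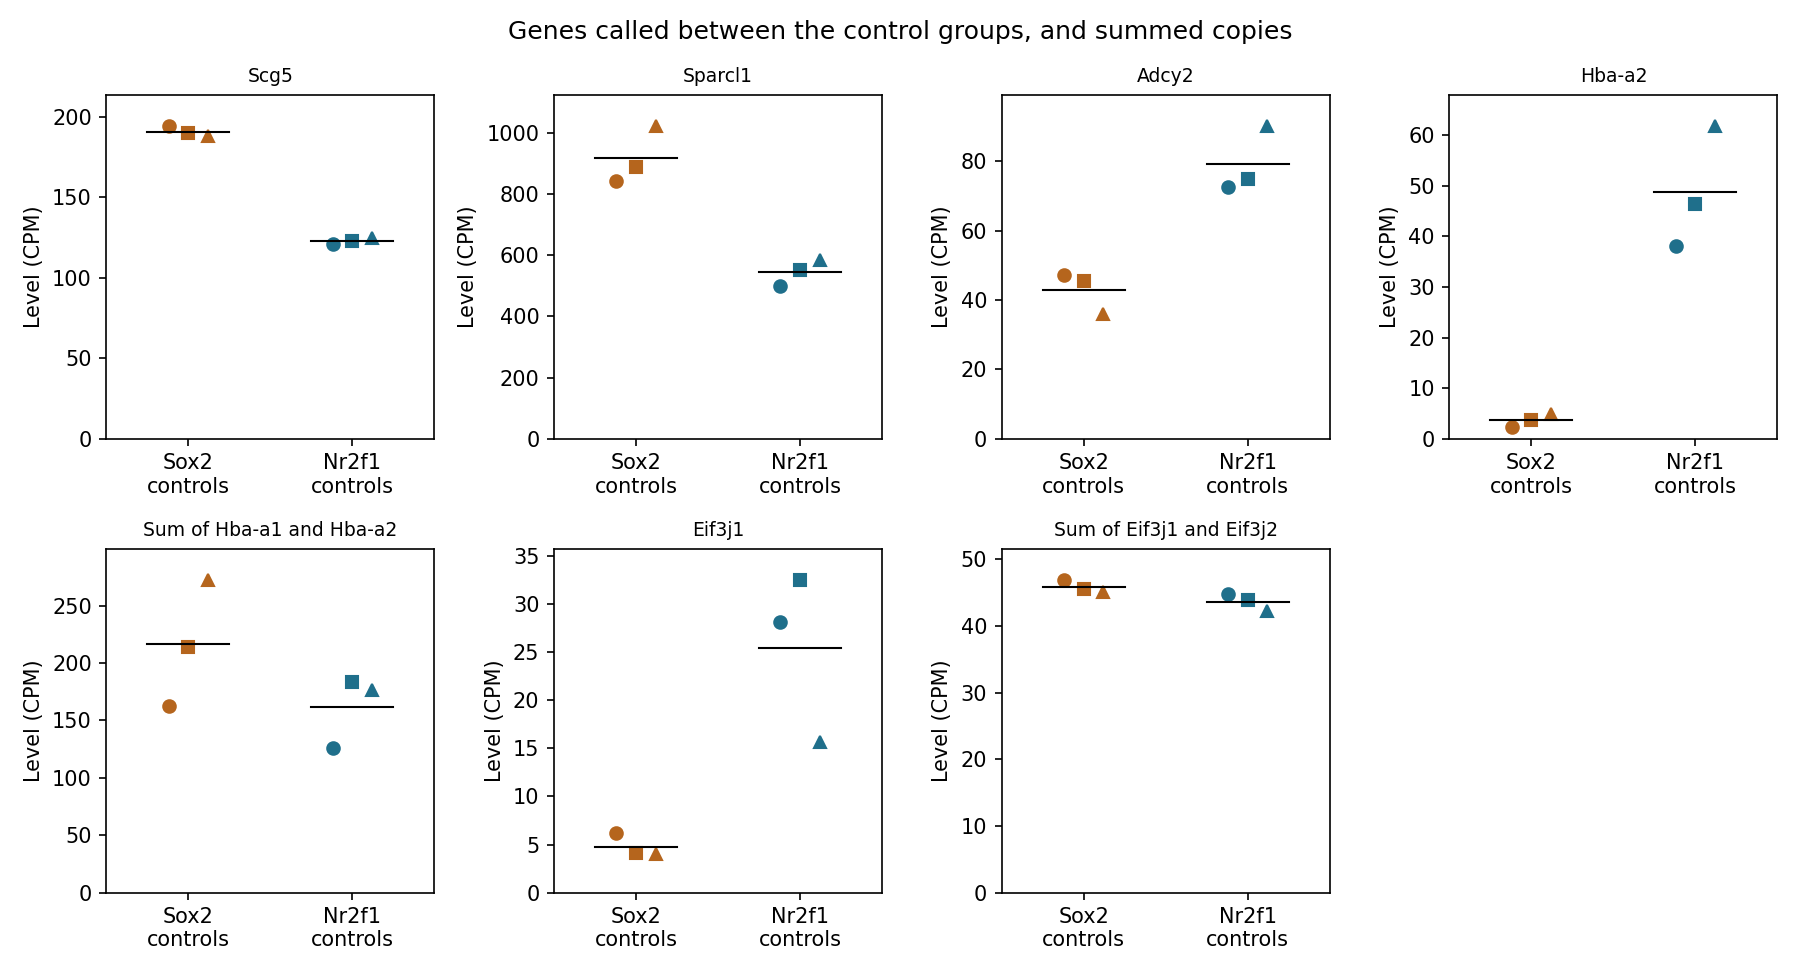
Level in CPM (vertical axes, starting at 0) of 5 genes called between the control groups and of 2 sums of near-identical copies; each point is 1 library (circle, square and triangle for CTRL_1, CTRL_2 and CTRL_3, and for CTRL_B, CTRL_D and CTRL_E) and each line the mean of 3. Hba-a2 and Eif3j1 are higher in all 3 Nr2f1 controls, whereas the sum of the Eif3j copies lies between 42.3 and 46.9 CPM in all 6 libraries.

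How many genes of the listed kinds differed between the groups depended on the test. By edgeR, 0 of 561 tested transcription factors were called, with 7 at an adjusted p below 0.05 and 134 (23.9%) at an unadjusted p below 0.05, beside 53 of 15506 genes (0.342%) called and 2693 (17.4%) at that unadjusted p in all. That share was 26.0% for receptors, 22.5% for ion channel genes, 26.8% for transmitter and peptide genes and 33.7% for cell type markers, so it was above that of all genes in each list. Without CTRL_E the 134 transcription factors were 84 (14.8%), beside 11.3% of all genes, and without CTRL_D the 15 transmitter and peptide genes were 9 (15.5%), beside 15.6%. By DESeq2, 17 transcription factors were called, beside 344 genes in all. By edgeR, of 304 receptors 2 were called (S1pr5 and Sorl1), of 200 ion channel genes 1 (Ryr1), of 56 transmitter and peptide genes 1 (Scg5) and of 169 cell type markers 1 (Hba-a2), against 7, 8, 1 and 11 by DESeq2. Median differences were -0.08 for transcription factors, 0.01 for receptors, 0.05 for channels, 0.00 for transmitter and peptide genes and -0.14 for markers, beside -0.01 over all genes. Without CTRL_3, chosen after seeing the data, these medians were -0.05, 0.00, 0.03, -0.05 and -0.08, beside 0.00 over all genes. By marker list, the median was -0.34 for astrocytes and radial glia and -0.23 without CTRL_3, and -0.24 for the oligodendrocyte lineage and -0.14 without it. For meningeal and perivascular fibroblasts it was -0.52 and -0.15 without CTRL_3, and for GABAergic neurons 0.19 and -0.06. For thalamic glutamatergic neurons it was 0.16 and 0.06 without CTRL_3, and for neurons of any kind 0.09 and 0.02. Leaving out other libraries also moved these medians. The thalamic glutamatergic median was 0.24 without CTRL_1 and 0.10 without CTRL_E. Without CTRL_2 the GABAergic median was 0.36 and that of neurons of any kind 0.14, and without CTRL_B the fibroblast median was -0.33. Of these 6 medians, the GABAergic one turned sign, without CTRL_3. Further medians that turned sign without CTRL_3 were those of border macrophages (-0.39 and 0.10), endothelial cells (-0.20 and 0.03), pericytes (-0.12 and 0.07), zona incerta, reticular and ventral geniculate nuclei (0.10 and -0.15) and the 1 female-specific gene tested (-0.35 and 0.04). Of 21 marker lists, 4 turned sign without CTRL_1, 1 without CTRL_2, 6 without CTRL_3, 1 without CTRL_B, 0 without CTRL_D and 4 without CTRL_E. EdgeR called 0 members of these 6 lists with all libraries, and 1 astrocyte and radial glia marker without CTRL_E. With all 6 libraries, at an unadjusted p below 0.05 there were 8 of 11 astrocyte and radial glia markers, 3 of 9 fibroblast markers, 7 of 11 oligodendrocyte lineage markers, 6 of 14 thalamic glutamatergic markers, 3 of 12 markers of neurons of any kind and 1 of 10 GABAergic markers. DESeq2 called 4, 1, 1, 0, 1 and 0 of them. The 8 astrocyte and radial glia markers were between 7 and 9 with each library left out, and the median of that list lay between -0.41 and -0.23. The counts of the other lists by unadjusted p leaned on single libraries: the 3 fibroblast markers were 5 without CTRL_1 and 7 without CTRL_2, and the 7 oligodendrocyte lineage markers 4 without CTRL_B. The 6 thalamic glutamatergic markers were 2 without CTRL_B and 2 without CTRL_E, the 3 markers of neurons of any kind 1 without CTRL_B, and the 1 GABAergic marker 2 without CTRL_2 and 0 without each of the others. The 6 dividing cell markers had a median of -0.36 and all 6 had an unadjusted p below 0.05, with 0 called by edgeR or by DESeq2. Without CTRL_3 the median was -0.21. Such a p was found for 3 of the 6 without CTRL_1, for 1 without CTRL_3 and for 1 without CTRL_E.

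Within 10 Mb of Sox2, 0 of 71 tested genes were called by edgeR, with 21 (29.6%) at an unadjusted p below 0.05 and 3 called by DESeq2, beside 0.342% called by edgeR, 17.4% at that unadjusted p and 2.22% called by DESeq2 over all genes. The count of 21 was 13 (18.3%) without CTRL_3 and 13 without CTRL_E, beside 2009 and 1750 of all genes, and between 14 and 19 without each of the others. Within 10 Mb of Nr2f1 1 of 64 was called (1.56%), with 10 (15.6%) at an unadjusted p below 0.05 and 1 called by DESeq2, and 7 to 14 had such a p with each library left out. The gene called by edgeR is Adcy2, which lies at chr13:68620043-68999600. The window sets this count, which was 0 within 5 Mb and 2 within 20 Mb of the 2 genes, and the call of Adcy2 was lost without any 1 library other than CTRL_3, with adjusted p from 0.00475 to 0.0231 over the 6 omissions. Of the 53 called genes, 17 (32.1%) lay within 1 Mb of another called gene, against 979 of all 15506 tested genes (6.31%). Of the 17, 5 had reached the count asked of tested genes in the Nr2f1 controls only. With at least 10 counts in each library, chosen for this count after seeing the data, it was 7 of 42 (16.7%) against 857 of 14793 (5.79%), and these 7 include the copies Plac9a and Plac9b and 2 protocadherins of 1 cluster. Besides the 3 genes on chromosome 2, Ooep, Dppa5a and C920006O11Rik on chromosome 9 were all higher in the Nr2f1 controls. Ooep, an oocyte-expressed gene, was at 0.701, 0.670 and 0.560 CPM in the Sox2 controls and 5.01, 5.01 and 3.39 CPM in the Nr2f1 controls, and the pluripotency-associated Dppa5a at 0.110, 0.185 and 0.0730 CPM in the Sox2 controls and 1.76, 2.17 and 1.71 CPM in the Nr2f1 controls. Both were under 1 CPM in every Sox2 control and the groups were far apart. C920006O11Rik kept its direction without each library but passed the threshold without 0 of the 6. Chromosome 14 held 9 of the 53 genes among 551 tested (1.63%), the largest number of any chromosome, including Plac9a, Plac9b, Tmem254b and the pair Rec8 and Ppp1r3e. Calls among these were lost without CTRL_1, CTRL_2, CTRL_3, CTRL_B or CTRL_E for Plac9a (adjusted p from 0.00704 to 0.0319), without CTRL_1, CTRL_2, CTRL_B or CTRL_E for Plac9b (adjusted p from 0.00161 to 0.0373) and without any 1 library other than CTRL_3 for Ppp1r3e (adjusted p from 0.00802 to 0.0256). In 5 equal classes of genes from low to high GC content, the median difference was 0.01, 0.02, 0.00, -0.02 and -0.04. In 5 classes from short to long it was -0.06, -0.03, -0.01, 0.01 and 0.07.

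The mutants of the 2 lines give the same line comparison in 6 further libraries, in which the deleted genes also differ. There, 2233 of 15698 genes were called (14.2%). Of the 53 genes called between the controls, 51 were tested in the mutants, 47 had the same direction, 37 of them called, and 4 the opposite direction. Of these 4 edgeR and DESeq2 called 0 in the mutants, and 1 had an unadjusted p below 0.05. How many of all tested genes had the same direction in both comparisons was not counted. The 47 include 2210418O10Rik, Gm14305, Gm3317, Dppa5a and Marcksl1-ps4, which had reached the count asked of tested genes in the Nr2f1 controls only. They also include Hba-a2 and Eif3j1, whose sums of copies were not called. Adcy2 differed by 1.18 between the mutants, beside 0.89 between the controls, Mamdc2 by -1.34 beside -1.37, and Coq2, of ubiquinone synthesis, by 0.88 beside 0.89. Sparcl1 differed by -1.08 beside -0.75. These 4 genes had the same sign in both comparisons. The control call was lost without CTRL_1, CTRL_2, CTRL_B or CTRL_E for Coq2 (adjusted p from 0.00276 to 0.0184), without any 1 library other than CTRL_3 for Adcy2 (adjusted p from 0.00475 to 0.0231) and without CTRL_2, CTRL_B, CTRL_D or CTRL_E for Sparcl1 (adjusted p from 0.00176 to 0.0275), and not for Mamdc2. Scg5 differed by -0.63 between the controls and by -0.07 between the mutants, and the test of this change gave 0.58 ± 0.11 on the log2 scale (SE, adjusted p = 0.0103 by edgeR), just short of the threshold. Scg5 had been chosen by the control values that enter this test, so the test is not independent of that choice. The 4 genes with opposite directions were S1pr5, Fam163a, Ngef and Gcnt1. Their control calls were lost without any 1 library other than CTRL_3 for S1pr5 (adjusted p from 0.00246 to 0.0314), without any 1 library other than CTRL_3 for Fam163a (adjusted p from 0.00692 to 0.0333), without CTRL_1, CTRL_2, CTRL_3, CTRL_B or CTRL_E for Ngef (adjusted p from 0.00399 to 0.0456) and without each library for Gcnt1 (adjusted p from 0.0214 to 0.0459). The plot of line differences sets both comparisons side by side.

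**Figure D5:**
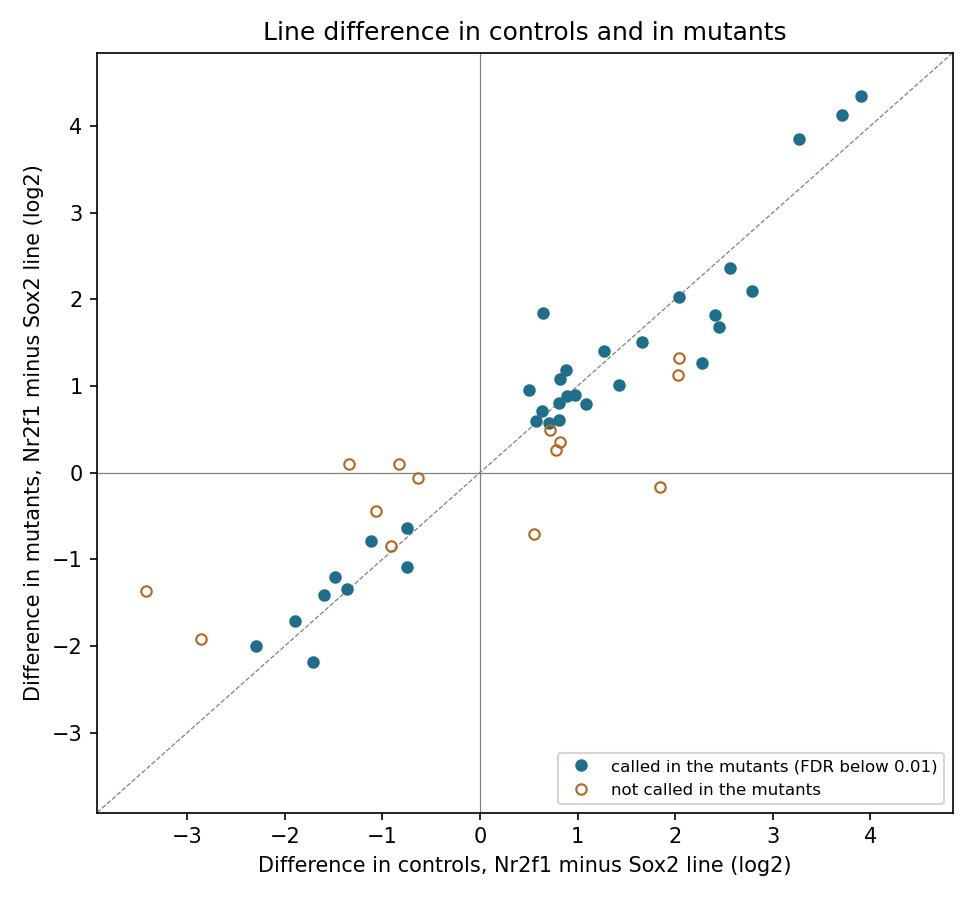
Log2 difference between the Nr2f1 and the Sox2 line in the controls (horizontal axis) and in the mutants (vertical axis) for 47 of the 53 called genes; filled points (33) were called in the mutants, open points were not, and the dashed line marks equal differences. The 6 genes left out were not tested in the mutants or had at most 3 counts over a group.

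Within groups, the genes that varied most among those with a mean of at least 10 CPM were Xist, with a biological coefficient of variation of 1.36, Ttr with 0.664 and Tuba1c with 0.509, beside a median of 0.0954 over all genes tested. Ttr was at 109, 35.9 and 3.33 CPM in the Sox2 controls and 28.7, 21.6 and 55.4 CPM in the Nr2f1 controls. It was highest in CTRL_1 and lowest in CTRL_3, both Sox2 controls. Gdf1, with 0.483, was at 5.94, 5.45 and 28.1 CPM in the Sox2 controls and 9.61, 19.0 and 6.51 CPM in the Nr2f1 controls, and CTRL_3 was its highest library. Myo7a, a myosin of sensory cells, was at 12.1, 39.7 and 10.3 CPM in the Sox2 controls and 21.9, 26.3 and 68.5 CPM in the Nr2f1 controls. CTRL_2 and CTRL_E, the libraries with almost no Xist, were the highest for Ddx3y, and for Myo7a CTRL_E was highest, CTRL_2 second. Rn7sk, a small nuclear RNA, was at 30.2, 29.2 and 63.8 CPM in the Sox2 controls and 10.3, 4.39 and 17.6 CPM in the Nr2f1 controls, with higher values in the Sox2 controls, CTRL_3 above all, and an adjusted p of 0.0655 by edgeR between the groups. The Rn7sk difference was -1.93 on the log2 scale and -1.47 without CTRL_3 (adjusted p = 0.119). Rn7s1 was at 12.6, 25.6 and 49.5 CPM in the Sox2 controls and 5.91, 7.67 and 13.3 CPM in the Nr2f1 controls. Lars2, named after its value was seen, was at 419, 623 and 909 CPM in the Sox2 controls and 167, 101 and 382 CPM in the Nr2f1 controls. CTRL_3 was the highest library for both, and edgeR called neither between the groups (adjusted p = 0.0916 and 0.104).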

How the data were processed

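Newborn dLGN RNA of 6 control libraries (3 per line, each from 3 pooled animals) was compared. The deposited tables hold expected counts per gene, which the authors made by mapping reads with STAR to mm10, per their processing notes, and by RSEM on a RefSeq transcriptome, per the study's methods. The 2 tables were joined by gene symbol and the counts rounded to whole numbers. TPM were computed in Python 3.11.15 (pandas 2.3.3, numpy 2.4.6) from the longest annotated transcript. The control groups were compared in R 4.3.3 with edgeR 4.0.16 (genes kept with a minimum count of 10 and a total of 15, trimmed mean of M values, quasi-likelihood F test, Nr2f1 minus Sox2 controls), adjusted over all tested genes, with a threshold of 0.01. The same fit was made on the mutants, and a fit over all 12 libraries tested whether the line difference changed. The edgeR comparison of the control groups was tested on simulated data. Depth was 40.3 to 50.1 M counts, and the median SE was 0.10 on the log2 scale. Alternatives were DESeq2 1.42.0, a likelihood ratio test, other filters, scalings and transcript lengths, a covariate of male-specific genes, offsets for GC content and length, other windows, and leaving out each library. Lists were transcription factors, receptors, ion channels, transmitter and peptide genes and cell type markers. Named genes were taken from the 15 highest by mean TPM, the 20 highest transcription factors, receptors and ion channels, the 15 highest transmitter and peptide genes, the highest of each family, the markers, the 10 called genes of smallest p and of largest difference (mean of 5 CPM or more) in each direction, the 10 highest called genes, the 10 most variable within groups (mean of 10 CPM or more), called list members and called genes near Sox2 or Nr2f1, and not every gene of these sets is named. Besides those so described in the text, Zic2, Nr2f2, Gabbr2, Gabra3, Grm5, Epha8, Robo2, Chrnb2, Htr7, Adcyap1r1, Hcn2, Tph1, Tph2, Th, Dbh, Chat, Zfp973, Dppa5a, C920006O11Rik, Fam163a and Gcnt1 were named after their values were seen. The members and lists were chosen with earlier results of these data known. The mutants served only for the line difference.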

Additional observations from a re-analysis of the deposited data

Results flagged for a closer look

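For 3 of the 53 genes called between the control groups, the line difference changed in the mutants by the test of the change itself. This test was made in 1 edgeR fit over all 12 libraries, where 231 of 15989 genes passed it. The 53 genes had been chosen by the control values that enter the test, so it is not independent of that choice. Edaradd, an adaptor of ectodysplasin signalling, differed by 0.65 between the controls and by 1.84 between the mutants, a change of 1.2 on the log2 scale (adjusted p = 0.00332). S1pr5 differed by -1.35 between the controls and by 0.10 between the mutants, a change of 1.45 (adjusted p = 0.00412). Ngef, a guanine nucleotide exchange factor that acts with Eph receptors, differed by -0.83 and by 0.10, a change of 0.93 (adjusted p = 0.00441). The call between the controls was lost without CTRL_1, CTRL_2, CTRL_B or CTRL_E for Edaradd (adjusted p from 0.00623 to 0.0275 over the 6 omissions), without any 1 library other than CTRL_3 for S1pr5 (0.00246 to 0.0314) and without any 1 library other than CTRL_D for Ngef (0.00399 to 0.0456). The mutants of the 2 lines also differ in the gene deleted, and the cause of these changes was not tested.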

How the results depend on the processing

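The number of genes called between the control groups, 53, was 55 with the other quasi-likelihood fit, 42 with at least 10 counts in each library, 55 and 53 with other scalings, 75 in 1 fit over all 12 libraries and 57 with offsets for GC content and length. DESeq2 called 344 genes and the likelihood ratio test 353. With no filter on low counts 100 were called, at an adjusted p below 0.05 209, and with the covariate of male-specific genes 20. Leaving out 1 library gave 20 to 53 genes (20 without CTRL_1, 20 without CTRL_2, 53 without CTRL_3, 23 without CTRL_B, 33 without CTRL_D and 32 without CTRL_E), each with fewer samples. Beyond that, the cause was not tested. Of the 53 genes, 8 passed in all 16 alternative fits, 5, tested through the Nr2f1 controls only, in the 15 that tested them, 40 were lost in at least 1 and 0 reversed. The uncalled genes without CTRL_3 were chosen after seeing the data. So were the sums of copies, list medians with their signs and counts by unadjusted p with each library left out. The count of called genes near Sox2 and Nr2f1, 1, was 0 with a window of 5 Mb and 2 with 20 Mb. In the mutants 47 genes kept their direction, and 47 with DESeq2 and 49 with no filter, both chosen after seeing the data. Genes above 1 TPM in all libraries, 13550, ranged from 13352 to 13529 with other lengths or CPM and from 13581 to 13599 with a library left out, and were 11044 above 5 TPM and 14133 by the mean. Of the 50 highest genes, 36 to 46 were shared with other lengths, 49 to 50 with a library left out, 49 with either group alone and 21 by CPM with no division by length, which favours long genes by construction. No paired analysis was possible because the columns name only the group, with letters in the Nr2f1 table and numbers in the Sox2 table, and nothing links a library of 1 line to a library of the other.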
